A study of Schizocardium californicum with 12 samples.

Results

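Larvae of *Schizocardium californicum* were compared 3 days after a dose of 120 Gy of X-rays with larvae that received 0 Gy. The animal is a hemichordate, or acorn worm, whose swimming tornaria larva is later remodelled into a burrowing juvenile. The comparison is between 6 of the 12 libraries of the series, all those of its larvae: 3 of irradiated larvae and 3 of control larvae. The other 6 are from juveniles, 3 of them given 200 Gy and 3 given 0 Gy. All 12 were fitted together, so that the juvenile libraries also entered the low-count filter, the scaling and the estimate of spread. Each library was made from the whole bodies of 5 pooled larvae, fed on algae before the treatment and kept in filtered seawater after it. No strain, sex or age is named in the labels. The study describes the 3 replicates of a group as independent biological samples. All cell types of the larva are mixed in each sample, so that fewer cells of a type and less RNA per cell cannot be told apart.

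X-rays break DNA. In animals, cells with broken DNA are known to halt division, to switch on repair and, where repair fails, to die, with the p53 protein as a main switch between these outcomes in vertebrates. Dividing cells are the most sensitive. Proteasomes degrade damaged and regulatory proteins, ribosomal proteins are made in step with growth, and mitochondria supply energy, and the levels of their genes are often measured in stressed tissue. The gene names used here are those of the deposited tables. The roles given beside them are those known for proteins of that name in vertebrates, unless another animal is named, and were not measured in this species.

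The 3 irradiated libraries held 11339677 to 17809380 reads on genes and the 3 control libraries 7675726 to 13533612. Introns held 5.49% to 5.63% of the reads in irradiated larvae and 4.67% to 6.29% in control larvae. The replicates of a group differed by far more than counting noise, with log2 counts correlated at 0.969 to 0.982 (Pearson's r across genes, which are not independent replicates). Pairs of an irradiated and a control library correlated at 0.957 to 0.978, so that the ranges within and between groups overlap. On the first principal component of the larval libraries, which held 36.03% of the variance, irradiated libraries lay at −56.1 to −22.3 and control libraries at 24.1 to 46.4. On the second, with 20.8%, irradiated libraries 2 and 3 lay farthest apart, at −49.8 and 48.3. Of 27463 genes, 20780 had enough reads to be tested. The 14 Hox genes, patterning genes that are known to act mainly in the trunk, were all tested, and 0 of them changed (0 also at an unadjusted p of 0.05 or less, by DESeq2 and by limma). In TPM, the read density of a gene as a share of the whole library, they summed to 292 to 353 in irradiated larvae, to 290.1 to 334 in control larvae and to 346 to 507 over the 6 juvenile libraries.

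In irradiated larvae, 425 genes fell (2.05% of those tested) and 389 rose (1.87%), 3.92% in all, at an adjusted p of 0.05 or less from the quasi-likelihood test of edgeR, adjusted by the Benjamini-Hochberg method. The fold change was at least 4 (2 on the log2 scale) for 53 of the genes that fell and for 54 of those that rose, and it was under 2 for 197 and 236 of them. Over all genes tested, the median log2 fold change was 0.0095. Genes without a descriptive name made up 15.1% of the genes that fell, 15.4% of those that rose and 15.3% of all genes tested. Over the 23 chromosome sequences with at least 200 tested genes, the share of tested genes that fell ran from 0.605% to 3.48% and the share that rose from 0.648% to 2.82%. The count depended on how the spread between pools was estimated. When only the 6 larval libraries were fitted, 172 genes fell and 115 rose, and leaving out 1 larval library at a time gave 201 to 341 lower and 105 to 294 higher genes. The fewest of both came without control library 1, the shallowest of the larval libraries.

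The 2 rises with the smallest p, and another of the largest, were in genes that carry no descriptive name and were picked after their values were seen. Unchar_206 (SCA01472, on chr2A_Sc2, 6 exons) had 783, 695 and 904 normalized counts in irradiated larvae, against 38.1, 22.7 and 27.2 in control larvae, or 4.79 on the log2 scale (standard error 0.22, adjusted p = 1.71e-07). Unchar_2463 (SCA15387, on chr1A_Sc2, 4 exons) had 1733, 1736 and 1830 normalized counts in irradiated larvae and 123, 117 and 94.4 in control larvae (log2 fold change 4.00, standard error 0.17, adjusted p = 9.8e-08). Unchar_2227 (SCA14045, on the same chromosome sequence, 5 exons) had 276, 275 and 274 normalized counts in irradiated larvae, against 0, 14.4 and 15.6 in control larvae (log2 fold change 4.59, standard error 0.41, adjusted p = 0.000135). For all 3, the irradiated pools were close together and far above each control pool. Unchar_206, Unchar_2463 and Unchar_2227 kept their calls without any 1 larval library. In juveniles their log2 fold changes were 4.48, 4.06 and 2.81.

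**Figure D1:**
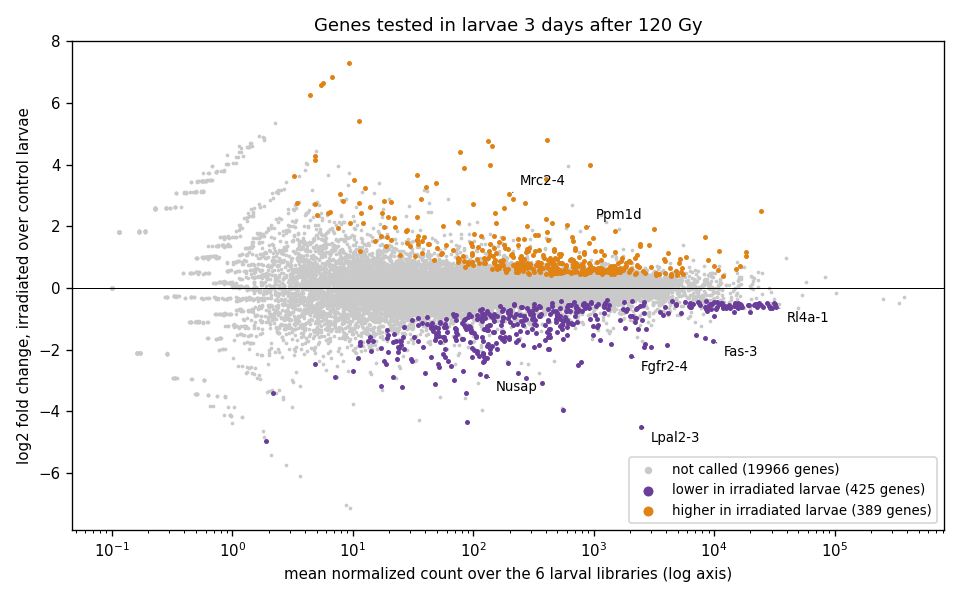
Each point is a gene tested, with the mean normalized count over the 6 larval libraries on a log axis and, on the vertical axis, the log2 fold change of irradiated over control larvae. The 425 genes that fell are purple, the 389 that rose are orange, and the abundant genes at the right that fell by less than 1 include the ribosomal protein gene Rl4a-1.

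The largest changes among genes with a descriptive name were taken from those with at least 20 normalized counts on average, at least 50% of reads uniquely placed and no overlap between the groups. The 10 largest falls took in a group of lipoprotein-like genes, several genes named for immune proteins, and Nusap, for a protein of the mitotic spindle. Lpal2-3 (SCA09477, on chr5A_Sc2) is named for an apolipoprotein(a)-like protein and was the largest. Its normalized counts were 489, 38.4 and 80.4 in the irradiated libraries, against 5249, 1365 and 7456 in the control libraries. That is −4.50 on the log2 scale (standard error 1.08, adjusted p = 0.0383), with wide differences between pools in both groups. The lack of overlap was a condition of the choice. All 3 irradiated libraries lay below all 3 controls for 11.6% of all genes tested, and all above for 12.6%. The related Lpal2-1 and Lpal2-2 (SCA01579 and SCA02358, both on chr2A_Sc2) fell by 8.37-fold and 7.46-fold. Of the 6 Lpal2 genes tested, these 3 fell and 0 rose, where 2.05% of all genes tested fell and 1.87% rose. The Lpal2 genes are described because these 3 were among the 10 largest falls. In irradiated larvae, Fcn2-7, named for a ficolin, a lectin that binds microbial sugars, had 15, 2.26 and 5.03 normalized counts, against 139, 74.2 and 295 in control larvae (log2 fold change −4.35, standard error 0.82, adjusted p = 0.013). The scavenger receptor gene M130-2 had 144, 9.04 and 39.2 normalized counts in irradiated larvae, against 755, 268 and 2137 in control larvae. Il17l-1, named for an interleukin-17-like cytokine, fell by 10.5-fold and Helz2-7, for an interferon-induced helicase in vertebrates, by 7.87-fold. The tightest of these falls were those of Arrd3-2, named for an arrestin-domain protein, and Nusap. Arrd3-2 had 11.6, 11.3 and 6.03 normalized counts in irradiated larvae and 97, 59.8 and 101 in control larvae (log2 fold change −3.12, standard error 0.39, adjusted p = 0.00128). Neul4-38, for a neuralized-like protein, completes the group with a 7.4-fold fall. Arrd3-2, Nusap and Neul4-38 kept their calls when any 1 larval library was left out, although Neul4-38 lost its call with limma (adjusted p = 0.0628) and within the larval libraries alone. For the others the adjusted p ran over these omissions from 0.0257 to 0.118 for Lpal2-3 (highest without irradiated library 3), 0.0128 to 0.0531 for Fcn2-7 (highest without irradiated library 3), 0.00995 to 0.0677 for M130-2 (highest without irradiated library 3), 0.0185 to 0.0984 for Il17l-1 (highest without control library 3), 0.0329 to 0.107 for Lpal2-1 (highest without control library 3), 0.015 to 0.069 for Helz2-7 (highest without control library 1) and 0.0232 to 0.063 for Lpal2-2 (highest without irradiated library 3). Single libraries also moved some of these folds by over 1.5 times. Without control library 3, the log2 fold change was −2.24 for Il17l-1, −2.08 for Lpal2-1, −2.92 for M130-2 and −3.66 for Fcn2-7. Without irradiated library 1, it was −6.29 for Lpal2-3, −5.47 for Fcn2-7, −5.41 for M130-2 and −4.51 for Il17l-1.

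**Figure D2:**
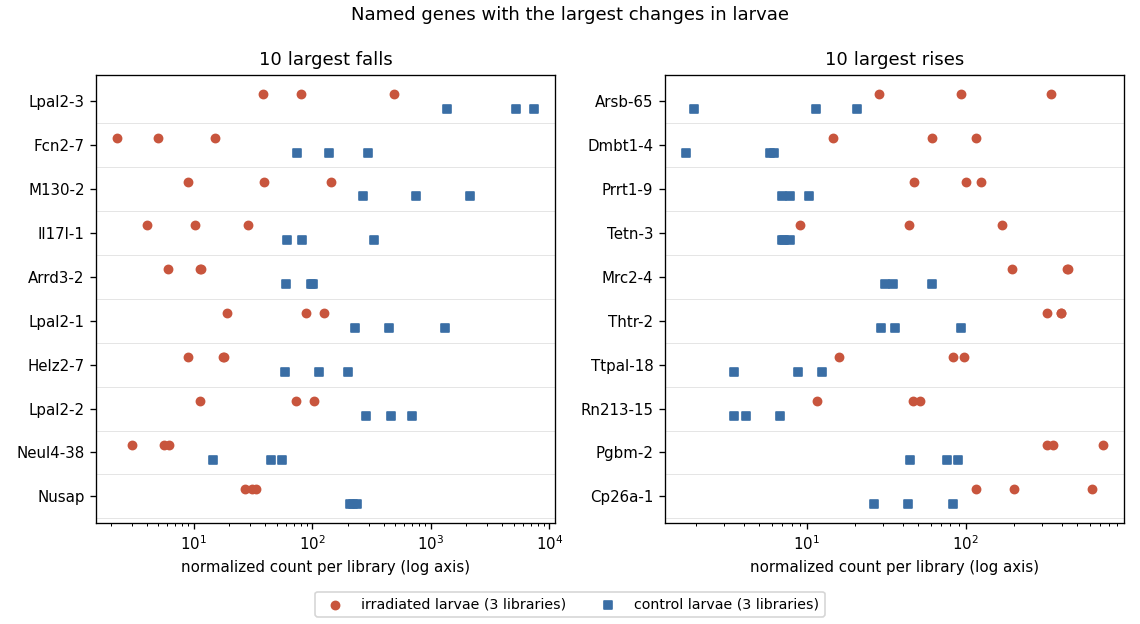
Normalized counts of the named genes with the 10 largest falls (left) and the 10 largest rises (right), on log axes, with 1 point for each of the 3 irradiated libraries (red circles, above) and the 3 control libraries (blue squares, below). The 20 genes were taken only from those in which the groups do not overlap. The irradiated libraries of Nusap lie close together, at 27.1 to 33.4, and those of Tetn-3 wide apart, at 9.04 to 168.

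The 10 largest rises, like the falls, included genes named for lectins and scavenger receptors. Others are named for an extracellular matrix protein, a sulfur-handling enzyme and an enzyme that breaks down retinoic acid. Mrc2-4 (SCA01244), named for a C-type mannose receptor that takes up collagen, had 436, 194 and 441 normalized counts in irradiated larvae, against 34.6, 60.8 and 31.1 in control larvae. Its log2 fold change was 3.07 (standard error 0.33, adjusted p = 0.000458). Thtr-2, for thiosulfate sulfurtransferase, had 322, 397 and 398 normalized counts in irradiated larvae and 93.5, 36.1 and 29.2 in control larvae (log2 fold change 2.90, standard error 0.31, adjusted p = 0.00045). Both genes rose by over 7-fold, and their lowest irradiated library was at least 3 times the highest control. Pgbm-2, for perlecan, a heparan sulfate proteoglycan of basement membranes, had 351, 324 and 729 normalized counts in irradiated larvae, against 76.2, 89.7 and 44.8 in control larvae. Prrt1-9, for a proline-rich membrane protein, had 100.3, 47.5 and 124 normalized counts in irradiated larvae and 6.93, 10.3 and 7.78 in control larvae. The spread between irradiated pools was wider in the others. Arsb-65, for the lysosomal enzyme arylsulfatase B, had the largest fitted rise with 92.8, 28.3 and 343 normalized counts in irradiated larvae, against 20.8, 11.3 and 1.95 in control larvae (log2 fold change 3.90, standard error 0.93, adjusted p = 0.0359). Dmbt1-4, a scavenger receptor gene, rose by 12.7-fold, Tetn-3, for the C-type lectin tetranectin, by 9.81-fold, and Ttpal-18, for a tocopherol transfer protein-like gene, by 7.47-fold. Rn213-15 rose by 6.97-fold and Cp26a-1, for the P450 enzyme that degrades retinoic acid, by 6.09-fold. Mrc2-4, Thtr-2, Pgbm-2 and Prrt1-9 kept their calls without any 1 larval library. Over the same omissions the adjusted p ran from 0.0134 to 0.135 for Arsb-65 (highest without irradiated library 3), 0.00152 to 0.0591 for Dmbt1-4 (highest without control library 1), 0.0026 to 0.113 for Tetn-3 (highest without control library 1), 0.000645 to 0.0741 for Ttpal-18 (highest without control library 1), 0.0039 to 0.0847 for Rn213-15 (highest without control library 1) and 0.0161 to 0.11 for Cp26a-1 (highest without control library 1). Without irradiated library 3, the log2 fold change was 2.57 for Arsb-65, 1.94 for Tetn-3, 2.98 for Dmbt1-4 and 1.62 for Cp26a-1. Without control library 1 it was 4.51 for Arsb-65 and 3.49 for Thtr-2, and without control library 2 it was 3.21 for Cp26a-1.

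Genes of DNA repair changed singly, and the lists as wholes stayed near the median of all genes. The rises described here were of genes that act at DNA ends, damaged bases and single-strand breaks. Of 69 tested genes for base excision, nucleotide excision and mismatch repair, 6 rose (8.70%, against 1.87% of all genes) and 0 fell, with a median log2 fold change of −0.05. Parp1-2 (SCA14459), for the poly(ADP-ribose) polymerase that binds DNA breaks, had 1029, 979 and 1004 normalized counts in irradiated larvae, against 372, 372 and 306 in control larvae, or 1.52 on the log2 scale (standard error 0.12, adjusted p = 5.41e-05). The 3 irradiated pools were nearly alike and well clear of the controls. Apex1 (SCA23250), for the endonuclease that cuts at lost bases, had 641, 612 and 753 normalized counts in irradiated larvae and 246, 312 and 264 in control larvae (log2 fold change 1.28, standard error 0.17, adjusted p = 0.00175). The other 4 that rose were Parp1-1 (1.61-fold), Parp2 (1.75-fold), Parp3-2 (2.26-fold) and Smug1-3, for a uracil-DNA glycosylase (2.58-fold). Of the larval reads of Parp3-2, 37% had a unique place in the genome, so that its counts depend on how reads were shared between near-identical genes. Of 93 tested genes of double-strand break repair and checkpoints, 2 rose and 2 fell, 2.15% each way, which is near the 1.87% and 2.05% over all genes. Xrcc5, for a subunit of the end-binding Ku complex, rose by 1.51-fold. Brca2, needed for recombination repair, fell by 1.87-fold and Topb1, which acts in replication and its checkpoint, by 2.26-fold. Parp1-2, Apex1, Smug1-3 and Brca2 kept their calls without any 1 larval library. The adjusted p ran from 0.0256 to 0.101 for Parp1-1 (highest without control library 1), 0.0408 to 0.127 for Parp2 (highest without control library 1), 0.0143 to 0.108 for Parp3-2 (highest without irradiated library 1), 0.0603 to 0.0899 for Xrcc5 (highest without control library 1) and 0.0755 to 0.126 for Topb1 (highest without irradiated library 1).

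Of 21 tested genes of the p53 pathway, 2 rose (9.52%) and 0 fell, against 1.87% and 2.05% over all genes tested. Ppm1d (SCA25108, on chr6A_Sc2), for a phosphatase that damps the damage response and is itself a p53 target, had 1482, 1261 and 1380 normalized counts in irradiated larvae, against 353, 380.4 and 321 in control larvae. Its log2 fold change was 1.97 (standard error 0.13, adjusted p = 7.78e-06). Mdm4-1 (SCA20703), for an inhibitor of p53, had 964, 1025 and 1040 normalized counts in irradiated larvae and 267, 275 and 409.6 in control larvae (log2 fold change 1.66, standard error 0.16, adjusted p = 0.00029). Of 64 tested caspase and BCL2 family genes, 3 rose (4.69%) and 0 fell, in a list with a median log2 fold change of 0.03. The list leaves out the gene models named Casp8, which are counted with receptor signalling, and Casp8-21 among them fell. Apaf (SCA18845), for the scaffold that activates caspases, had 790.3, 1156 and 1464 normalized counts in irradiated larvae, against 601, 466 and 503 in control larvae (log2 fold change 1.12, standard error 0.19, adjusted p = 0.00881). The other two are named for proteins that protect cells from death: B2cl1-1, for BCL2-like protein 1, with 60.7, 40.7 and 50.3 normalized counts in irradiated larvae against 22.5, 10.3 and 24.3 in control larvae, and Bcl2, which rose by 1.45-fold. Outside the lists, and chosen after their values were seen, Cdn2d, for an inhibitor of cyclin-dependent kinase 4, had 194, 141 and 159.9 normalized counts in irradiated larvae, against 72.7, 77.3 and 63.2 in control larvae (log2 fold change 1.22, standard error 0.19, adjusted p = 0.00483). Rb, for the retinoblastoma protein that holds cells before replication, rose by 1.92-fold, and 3mg, named for a glycosylase that removes alkylated bases, by 2.38-fold. Ppm1d, Mdm4-1, Apaf and Cdn2d were called without any 1 larval library. The adjusted p over the omissions ran from 0.0476 to 0.0989 for B2cl1-1 (highest without irradiated library 1), 0.0391 to 0.132 for Bcl2 (highest without control library 1), 0.0182 to 0.0501 for Rb (highest without control library 3) and 0.012 to 0.0599 for 3mg (highest without irradiated library 3). Within the larval libraries alone, Apaf had no call (adjusted p = 0.0506).

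**Figure D3:**
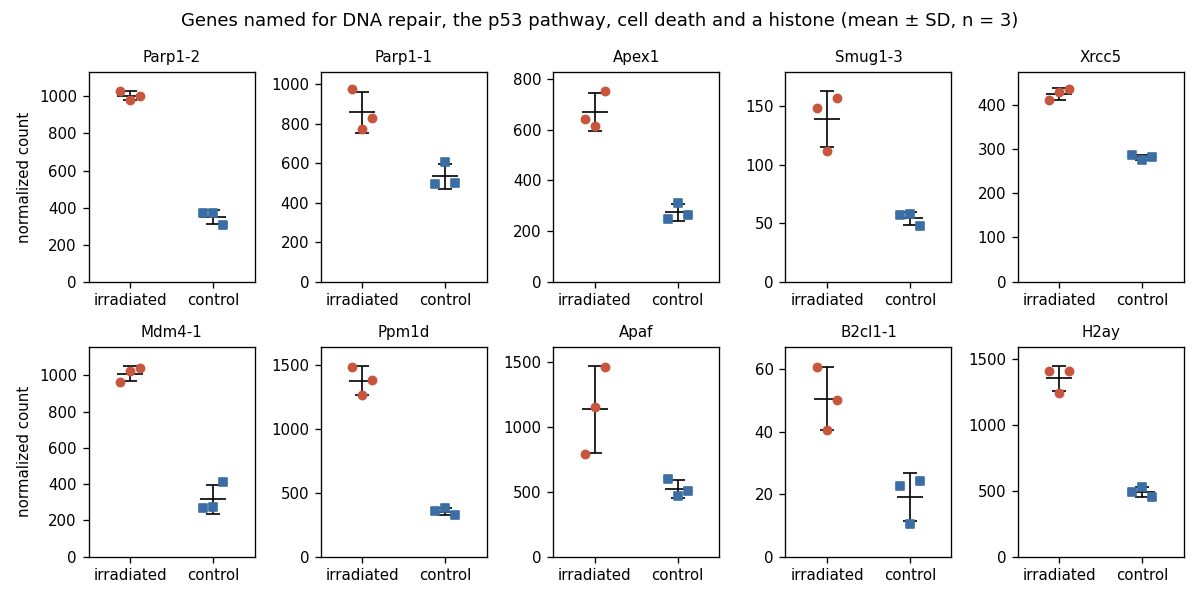
Normalized counts of 10 genes, each in its own panel with an axis from 0, in the 3 irradiated libraries (left, red) and the 3 control libraries (right, blue), with black bars for the mean ± SD. In every panel the groups are apart, with Ppm1d between 1261 and 1482 in irradiated larvae and between 321 and 380.4 in control larvae. The 10 genes were chosen among those that rose, and the groups do not overlap in 386 of the 389 genes that rose.

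Every called gene of cell division fell. Of 96 tested genes of mitosis and cytokinesis, 29 fell (30.2%) and 0 rose, and of 77 tested genes of DNA replication, 10 fell (13.0%) and 0 rose. Over all genes tested, 2.05% fell and 1.87% rose. At an unadjusted p of 0.05 or less, 2 and 0 genes of these lists rose, and DESeq2 called 1 mitosis gene higher. The median log2 fold changes were −0.63 and −0.26. Cdk1-2, for the kinase that starts mitosis, had 101, 54.2 and 97.5 normalized counts in irradiated larvae, against 268, 296 and 224 in control larvae, and Ccna-1, for the cyclin A that works with such kinases, had 58, 19.2 and 40.2 in irradiated larvae and 171, 161 and 136 in control larvae. Inner centromere protein gene Ince fell by 4.78-fold. Of the replication genes, Mcm6z (SCA16139), for a subunit of the helicase that opens the DNA, had 264, 249 and 208 normalized counts in irradiated larvae and 487, 596 and 582 in control larvae (log2 fold change −1.21, standard error 0.13, adjusted p = 0.000526). Its partners Mcm2, Mcm3z and Mcm5 fell by 2.03-fold, 2.3-fold and 2.12-fold, and Mcm4b, whose name the list did not match, by 2.88-fold. Rir2-2, for the small subunit of ribonucleotide reductase, which makes DNA precursors, fell by 2.97-fold. All of these fell by less than the spindle gene Nusap, whose normalized counts were 33.4, 27.1 and 31.2 in irradiated larvae, against 241, 223 and 210.2 in control larvae. The count of mitosis genes that fell was 20 to 25 when 1 larval library was left out and 27 within the larval libraries alone. The calls of Ince, Ccna-1, Nusap, Mcm6z, Mcm2, Mcm3z, Mcm5, Mcm4b and Rir2-2 held in each of these omissions, and the adjusted p ran from 0.0327 to 0.0558 for Cdk1-2 (highest without control library 1).

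Of the 35 gene lists, that of ribosomal proteins had the largest share of members that fell, 64.2%. Of 81 tested genes for cytosolic ribosomal proteins, 52 fell and 0 rose, and 80 of the 81 had a negative log2 fold change. In 73 of the 81, against 11.6% of all genes tested, every irradiated library lay below every control. The median was −0.52, against 0.0095 over all genes, and the 52 ran from −0.78 for Rl23 to −0.43 for Rs28. Rl4a-1 (SCA16179), for a protein of the large subunit, had 26410, 25779 and 25840 normalized counts in irradiated larvae, against 39863, 39037 and 40320 in control larvae, or −0.61 on the log2 scale (standard error 0.09, adjusted p = 0.00471). Rl21-1 (SCA07161) had 9188, 9551 and 9008 normalized counts in irradiated larvae and 15378, 14940 and 13162 in control larvae (log2 fold change −0.65, standard error 0.10, adjusted p = 0.00531). The falls were small in size and tight between pools. At an unadjusted p of 0.05 or less, 78 of the 81 fell and 0 rose, and DESeq2 and limma called 63 and 56 lower and 0 higher. Summed over the 82 such genes in the files, ribosomal protein transcripts took up 160814 to 168045 TPM in irradiated larvae and 218881 to 233489 TPM in control larvae, the highest irradiated library lying well below the lowest control. A TPM is a share of a fixed total, so that a fall of this size in one list raises the TPM of all other genes. The tests used counts scaled to effective library sizes. Without 1 larval library, 19 to 53 of the 81 genes fell, the fewest without irradiated library 3. Fitted within the larval libraries alone, 16 fell, with a median of −0.52. Elongation factor genes Ef1g-1 and Ef1d-1 fell too, by 1.46-fold and 1.5-fold. They belong to a list of 94 translation factors and aminoacyl-tRNA synthetases of which 2 fell (2.13%) and 3 rose (3.19%). Over all genes tested these shares were 2.05% and 1.87%. Among the rises were Sydc, which charges the tRNA for aspartate (1.55-fold), and Eif3k-1, for a subunit of an initiation factor (1.35-fold). Of 88 genes for ribosome biogenesis and the nucleolus, 3 fell (3.41%) and 0 rose, with a median of −0.17. Ddx21, for a nucleolar helicase, had 20804, 22854 and 24312 normalized counts in irradiated larvae, against 34757, 29876 and 41027 in control larvae, and Nop14, for a factor of the small subunit, fell by 1.57-fold. Rl4a-1, Rl21-1, Ef1g-1 and Ef1d-1 were called without any 1 larval library, but within the larval libraries alone Ef1g-1 and Ef1d-1 were not (adjusted p = 0.053 and 0.05004). For the others the adjusted p ran from 0.0532 to 0.161 for Sydc (highest without control library 1), 0.0556 to 0.171 for Eif3k-1 (highest without control library 1), 0.0128 to 0.0583 for Ddx21 (highest without irradiated library 1) and 0.021 to 0.104 for Nop14 (highest without control library 1).

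Every called gene of the proteasome, the respiratory chain and glycolysis rose, by less than 1 on the log2 scale. Of 41 tested proteasome genes, 12 rose (29.3%, against 1.87% of all genes tested) and 0 fell, 38 had a positive log2 fold change, and the median was 0.49. Psa5 (SCA04249), for a subunit of the catalytic core, had 905, 953 and 984 normalized counts in irradiated larvae, against 585, 633 and 511 in control larvae (log2 fold change 0.72, standard error 0.12, adjusted p = 0.0063). Psb5, for a subunit with protease activity, rose by 1.57-fold. In 31 of the 41 genes, against 12.6% of all genes tested, all 3 irradiated libraries lay above all 3 controls. The list summed to 4445 to 5295 TPM in irradiated larvae and 2968 to 3595 TPM in control larvae. The absence of falls held by DESeq2 and limma too, and at an unadjusted p of 0.05 or less 0 proteasome genes fell and 31 rose. Of 98 tested genes of the respiratory chain, 14 rose (14.3%) and 0 fell, with a median of 0.32. All 3 irradiated libraries lay above all 3 controls in 49 of the 98, against 12.6% of all genes tested. Qcr6-1 (SCA00395), for a subunit of complex III, had 706, 680.3 and 835 normalized counts in irradiated larvae, against 438, 457 and 434 in control larvae (log2 fold change 0.74, standard error 0.12, adjusted p = 0.00704). Among the 14 were genes named for the 4 subunits of succinate dehydrogenase, an enzyme of both the respiratory chain and the citric acid cycle: Sdha (1.41-fold), Sdhb-1 (1.59-fold), C560 (1.55-fold) and Dhsd-1 (1.57-fold). Dhsd-1 had 2034, 1935 and 2122 normalized counts in irradiated larvae and 1283, 1425 and 1168 in control larvae. The respiratory chain list summed to 18499 to 20466 TPM in irradiated larvae and 13970 to 16221 TPM in control larvae. Of 36 genes of glycolysis and the citric acid cycle, 5 rose (13.9%) and 0 fell, with a median of 0.33. Odo2, for a subunit of 2-oxoglutarate dehydrogenase, and Mdhc, for cytosolic malate dehydrogenase, both rose by 1.59-fold. The counts in these lists moved more between settings than their medians did. Within the larval libraries alone, 1 proteasome, 3 respiratory chain and 2 glycolysis genes rose, with medians of 0.49, 0.32 and 0.33. When 1 larval library was left out, 1 to 7 proteasome genes rose (1 without irradiated library 2 or control library 1), 2 to 10 respiratory chain genes (2 without control library 1) and 0 to 6 glycolysis genes (0 without control library 1). Psa5, Qcr6-1 and Dhsd-1 kept their calls in all 6 omissions. The adjusted p of the rest ran from 0.0462 to 0.098 for Psb5 (highest without control library 1), 0.0665 to 0.161 for Sdha (highest without control library 1), 0.0216 to 0.0706 for Sdhb-1 (highest without irradiated library 3), 0.0215 to 0.0688 for C560 (highest without control library 1), 0.0287 to 0.0601 for Odo2 (highest without control library 1) and 0.0226 to 0.0918 for Mdhc (highest without control library 1).

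**Figure D4:**
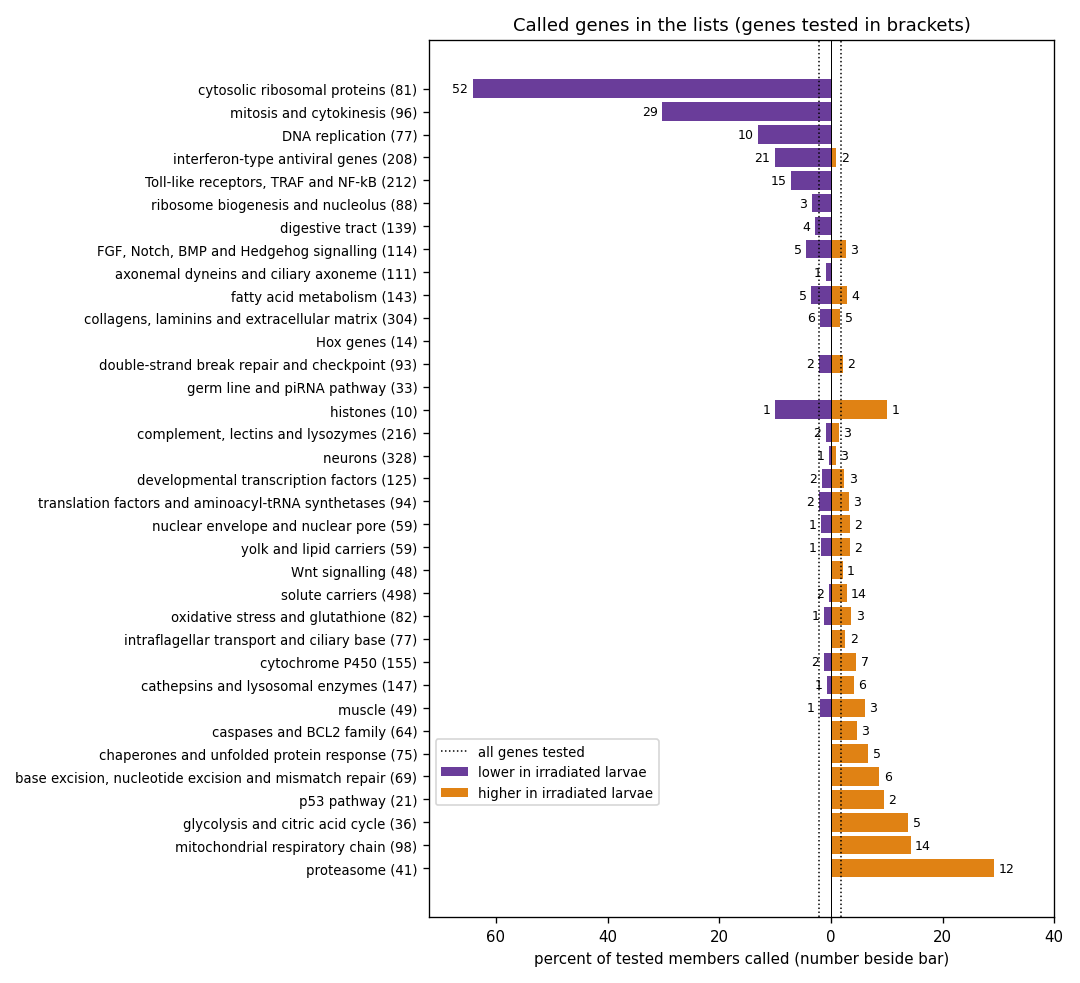
For each of 35 gene lists, the percent of its tested members that fell (purple, to the left) or rose (orange, to the right) in irradiated larvae, with the number of genes at the end of each bar and the number tested in brackets. Dotted lines mark the share over all genes tested, 2.05% lower and 1.87% higher, and the longest bars are those of ribosomal proteins (52 of 81 lower) and of the proteasome (12 of 41 higher).

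Genes of protein folding and of protection from oxidation showed a few rises. Of 75 tested chaperone genes, 5 rose (6.67%) and 0 fell, with a median of 0.23. Over all genes tested, 1.87% rose and 2.05% fell. Pdia4-1, for a disulfide isomerase of the endoplasmic reticulum, had 476, 638 and 558 normalized counts in irradiated larvae, against 307, 338 and 312 in control larvae (log2 fold change 0.80, standard error 0.14, adjusted p = 0.00947). Heat shock genes were uneven between pools. Hspb1, for a small heat shock protein, had 192, 455 and 107 normalized counts in irradiated larvae and 57.1, 37.1 and 79.8 in control larvae, and Hsp70-3 had 294, 1190 and 425 in irradiated larvae and 145, 154 and 233 in control larvae, with irradiated library 2 the highest for both. Of 82 genes for oxidative stress and glutathione, 3 rose (3.66%) and 1 fell (1.22%). Prdx6, for a peroxiredoxin that reduces peroxides, rose by 1.57-fold, and Fris-3, for the iron store ferritin, by 1.54-fold. Gst1-1, for a glutathione transferase, had 7673, 23119 and 7254 normalized counts in irradiated larvae, against 4740, 3913 and 3517 in control larvae, and irradiated library 2 was again the highest. Another transferase gene, Gsta4-1, fell by 2.26-fold. Pdia4-1 was called without any 1 larval library, and over the omissions the adjusted p ran from 0.0151 to 0.103 for Hspb1 (highest without control library 1), 0.0187 to 0.14 for Hsp70-3 (highest without control library 1), 0.0336 to 0.0883 for Prdx6 (highest without control library 1), 0.0342 to 0.125 for Fris-3 (highest without irradiated library 2), 0.0394 to 0.139 for Gst1-1 (highest without irradiated library 2) and 0.00891 to 0.0677 for Gsta4-1 (highest without irradiated library 3). Without irradiated library 2, the log2 fold change was 1.37 for Hspb1, 1.01 for Hsp70-3 and 0.88 for Gst1-1, against 2.10, 1.83 and 1.64 with it.

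Most of the called genes named for innate immunity fell. Of 208 tested genes of the interferon-type antiviral list, 21 fell (10.1%) and 2 rose (0.962%), with a median log2 fold change of −0.46. Over all genes tested, 2.05% fell and 1.87% rose. In 62 of the 208, against 11.6% of all genes tested, all 3 irradiated libraries lay below all 3 controls. In vertebrates, many genes with the names of this list act against viruses or are induced by interferon. Irf8-2 (SCA26084), for a transcription factor of the interferon response and of blood cells, had 30, 19.2 and 21.1 normalized counts in irradiated larvae, against 88.3, 72.2 and 122 in control larvae (log2 fold change −1.97, standard error 0.28, adjusted p = 0.00264). Dtx3l-18, for a ubiquitin ligase that works with PARP proteins, had 81.2, 66.7 and 91.5 normalized counts in irradiated larvae and 223, 188 and 236 in control larvae. Of 36 tested gene models named Par14, for an ADP-ribosyl transferase, 6 fell and 0 rose, among them Par14-1 (2.37-fold) and Par14-21 (2.13-fold). Of 26 models named Rn213, for a very large ubiquitin ligase with antimicrobial action, 5 fell, among them Rn213-30 (4.16-fold) and Rn213-8 (2.7-fold), and Rn213-15 rose. The other gene of the list that rose was Gilt, for a thiol reductase of the lysosome that interferon induces in mammals, at 1.62-fold. The antiviral list summed to 1002 to 1135 TPM in irradiated larvae and 1100 to 1399 TPM in control larvae, and these ranges overlap. Without 1 larval library, 8 to 23 of its genes fell, the fewest without control library 1. Irf8-2, Dtx3l-18, Rn213-30 and Gilt kept their calls in these omissions. Rn213-30 lost its call with limma (adjusted p = 0.0533) and Gilt within the larval libraries alone (0.0574). For the others the adjusted p ran from 0.00294 to 0.0509 for Par14-1 (highest without irradiated library 3), 0.00516 to 0.0647 for Par14-21 (highest without control library 1) and 0.00863 to 0.0593 for Rn213-8 (highest without control library 1).

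Of 212 tested genes for Toll-like receptors, TRAF adaptors and the NF-kB pathway, which carries their signal to the nucleus, 15 fell (7.08%) and 0 rose, with a median of −0.22. At an unadjusted p of 0.05 or less 12 rose, and 1 rose by DESeq2 and 0 by limma. Ikbz, for a nuclear regulator of NF-kB, had 525, 372 and 471 normalized counts in irradiated larvae, against 904, 841 and 1212 in control larvae (log2 fold change −1.11, standard error 0.16, adjusted p = 0.00328). Bcl3-5, for a protein of the same kind that the list did not hold and that was chosen after its values were seen, had 235, 153 and 166 normalized counts in irradiated larvae and 492, 566 and 740.4 in control larvae. The receptor gene Tlr6-1 fell by 6.37-fold, and the TNF-type ligand gene Tnf13-1 had 57.3, 61 and 57.3 normalized counts in irradiated larvae, against 296, 149 and 177 in control larvae. Casp8-21, for the caspase of receptor signalling, fell by 4.3-fold. Traf2-17 fell by 4.14-fold and Nfkb1-1, for a subunit of NF-kB itself, by 2.18-fold. The count that fell was 9 to 16 when 1 larval library was left out and 8 within the larval libraries alone. Of 216 tested genes for complement, lectins and lysozymes, 2 fell (0.926%) and 3 rose (1.39%), with a median of −0.01. Over all genes tested, 2.05% fell and 1.87% rose. The falls were of the ficolin genes Fcn2-7 and Fcn1-6 (3.35-fold), and the rises of Mrc2-4, Dmbt1-4 and Mrc1-7, for a macrophage mannose receptor, which had 30, 38.4 and 31.2 normalized counts in irradiated larvae and 3.46, 9.28 and 5.84 in control larvae. Ikbz, Bcl3-5, Tlr6-1, Tnf13-1, Casp8-21 and Mrc1-7 were called in each omission of a larval library. The adjusted p ran from 0.0385 to 0.132 for Traf2-17 (highest without control library 3), 0.0308 to 0.103 for Nfkb1-1 (highest without control library 3) and 0.0128 to 0.125 for Fcn1-6 (highest without control library 1).

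Genes of fatty acid synthesis were among the abundant genes that fell. Of 143 tested genes of fatty acid metabolism, 5 fell (3.50%) and 4 rose (2.80%), with a median of 0.04. Over all genes tested, 2.05% fell and 1.87% rose. The 5 were Acly-1, for the enzyme that makes cytosolic acetyl-CoA from citrate, and 4 of the 13 gene models named Fas, for fatty acid synthase. Fas-3 (SCA05022), the most abundant of the 4, had 5603, 2961 and 5097 normalized counts in irradiated larvae, against 12819, 10345 and 22166 in control larvae (log2 fold change −1.73, standard error 0.31, adjusted p = 0.0109). Acly-1 had 1368, 602 and 1320 normalized counts in irradiated larvae and 3832, 2259 and 6236 in control larvae. Fas-9, Fas-11 and Fas-12 fell by 3.72-fold, 3.35-fold and 3.6-fold, each of them highest in control library 3. Of the larval reads of Fas-9 and Fas-11, 61% and 60% were uniquely placed. A further model, Fas-2, rose by 2.34-fold. Echb, for an enzyme of mitochondrial beta-oxidation, had 1803, 1938 and 1800 normalized counts in irradiated larvae, against 1082, 1280 and 1153 in control larvae (log2 fold change 0.66, standard error 0.11, adjusted p = 0.00859). Of 59 genes for yolk and lipid carriers, Apod-6, for the lipid carrier apolipoprotein D, and Mtp, for the microsomal protein that loads lipoproteins, rose by 1.63-fold and 1.76-fold, and Apoa-2, named like the Lpal2 genes for apolipoprotein(a), fell by 5.76-fold. Fas-3 and Echb kept their calls without any 1 larval library. The adjusted p ran from 0.0128 to 0.066 for Acly-1 (highest without control library 3), 0.0128 to 0.111 for Fas-9 (highest without irradiated library 3), 0.00294 to 0.12 for Fas-11 (highest without control library 3), 0.0174 to 0.142 for Fas-12 (highest without control library 3), 0.00218 to 0.069 for Fas-2 (highest without control library 1), 0.0236 to 0.0733 for Apod-6 (highest without control library 1), 0.0456 to 0.145 for Mtp (highest without control library 1) and 0.0182 to 0.0804 for Apoa-2 (highest without control library 3). Without control library 3, the log2 fold change was −0.96 for Fas-9 and −0.93 for Fas-12, against −1.90 and −1.85 with it. For Apoa-2 it was −1.90 without control library 3 and −3.13 without irradiated library 1, against −2.53.

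Among cytochrome P450, solute carrier and lysosomal genes, rises made up 4.52%, 2.81% and 4.08% of those tested, against 1.87% of all genes. Of 155 tested cytochrome P450 genes, oxidases of foreign compounds, steroids and lipids, 7 rose and 2 fell, with a median of 0.02. Besides Cp26a-1, Cp2u1-35 had 78.5, 56.5 and 42.2 normalized counts in irradiated larvae and 17.3, 21.7 and 17.5 in control larvae. Cp17a-9 had 29 reads over the irradiated libraries and 1 read over the control libraries, a ratio of 22.3 per library size (95% interval 3.70 to 912, counting error only), and 43% of its larval reads were uniquely placed. With unique reads it lost its call (adjusted p = 0.0705). Cp4f2-7 and Cp4fe-4 both fell by 2.08-fold. Of 498 tested solute carrier genes, 14 rose and 2 fell, with a median of 0.13. S26a5-1, for an anion transporter, had 169.9, 189.8 and 277 normalized counts in irradiated larvae, against 90.1, 94.9 and 73.9 in control larvae (log2 fold change 1.30, standard error 0.20, adjusted p = 0.00483). S13a5-1, for a citrate carrier, had 36.9, 30.5 and 40.2 normalized counts in irradiated larvae and 8.66, 9.28 and 8.76 in control larvae. Mot12-75, for a monocarboxylate transporter, fell by 2.75-fold. Of 147 genes for cathepsins and lysosomal enzymes, 6 rose and 1 fell, with a median of 0.15. Catz-2 had 1959, 3230 and 2412 normalized counts in irradiated larvae and 1486, 1409 and 1205 in control larvae, Catc rose by 1.55-fold, and Arsb-2, an arylsulfatase gene like the risen Arsb-65, fell by 1.65-fold. S26a5-1, S13a5-1 and Mot12-75 were called without any 1 larval library, and the adjusted p ran from 0.0122 to 0.0501 for Cp2u1-35 (highest without control library 1), 0.0458 to 0.0945 for Cp4f2-7 (highest without irradiated library 2), 0.0526 to 0.112 for Cp4fe-4 (highest without control library 2), 0.0167 to 0.0672 for Catz-2 (highest without control library 3), 0.0254 to 0.0576 for Catc (highest without irradiated library 3) and 0.0193 to 0.113 for Arsb-2 (highest without irradiated library 3).

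The shares of called genes among developmental factors (1.60% lower, 2.40% higher) and extracellular matrix genes (1.97% lower, 1.64% higher) were near those of all genes (2.05% and 1.87%), and single members are described here. Of 114 tested genes for FGF, Notch, BMP and Hedgehog signalling, 5 fell (4.39%) and 3 rose (2.63%). The falls included the FGF receptor genes Fgfr2-4 (731, 758 and 678 normalized counts in irradiated larvae, against 3751, 3697 and 2574 in control larvae) and Fgrl1-4 (5.16-fold). Among the rises, Bmp2-1, for a bone morphogenetic protein, had 376, 315 and 368 normalized counts in irradiated larvae and 178, 208 and 219.9 in control larvae, and Fgf9-1, for an FGF ligand, rose by 1.78-fold. Spre-1 (3.22-fold higher) carries the name of sepiapterin reductase, an enzyme of pterin synthesis, and is no signalling gene by its name. Of 48 genes of Wnt signalling, 1 rose: Sfrp5-1, for a secreted Wnt inhibitor (1.43-fold). Of 125 developmental transcription factor genes, 2 fell and 3 rose. Foxn4, which acts in the choice of neuron type and in multiciliated cells, had 259, 264 and 217 normalized counts in irradiated larvae, against 596, 674 and 579.9 in control larvae (log2 fold change −1.32, standard error 0.15, adjusted p = 0.000674). Ndf1-2, for the neuronal factor NeuroD1, fell by 3.03-fold, while Prrx2 and Klf13 rose by 1.74-fold and 1.61-fold. Of 304 genes for the extracellular matrix, 6 fell and 5 rose. Svep1-17, for a large adhesion protein, fell by 1.93-fold, and Fcgbp-5, which carries the name of a mucin-like protein that binds antibodies, had 63.5, 44.1 and 62.3 normalized counts in irradiated larvae, against 13.9, 12.4 and 8.76 in control larvae. Tenr-5 fell too, with 82% of its larval reads in introns, and its call was lost with exon reads only (adjusted p = 0.287). Fgfr2-4, Fgrl1-4, Foxn4, Prrx2, Svep1-17, Tenr-5 and Fcgbp-5 kept their calls without any 1 larval library. Within the larval libraries alone Prrx2 lost its call (adjusted p = 0.058). The adjusted p ran from 0.0161 to 0.062 for Bmp2-1 (highest without control library 1), 0.0355 to 0.0761 for Fgf9-1 (highest without control library 2), 0.0227 to 0.0781 for Spre-1 (highest without control library 1), 0.0619 to 0.0853 for Sfrp5-1 (highest without control library 3), 0.00408 to 0.0606 for Ndf1-2 (highest without control library 1) and 0.0128 to 0.0741 for Klf13 (highest without control library 1).

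In the nucleus, Lbr-1, for a receptor of the inner nuclear membrane, fell by 6.88-fold, and Ima3-1 and Seh1, for an importin and a nucleoporin, rose by 1.76-fold and 1.42-fold, among 59 tested genes of the nuclear envelope and pore. In that list 1.69% fell and 3.39% rose, against 2.05% and 1.87% of all genes tested. Only 10 of 195 histone genes had enough reads to be tested, and 1 fell and 1 rose. H2ay (SCA26838, on chr18A_Sc2), for the variant histone macroH2A, had 1409, 1242 and 1408 normalized counts in irradiated larvae, against 488, 529.9 and 454 in control larvae (log2 fold change 1.46, standard error 0.13, adjusted p = 9.97e-05). The linker histone gene H1d had 4063, 3581 and 4030 normalized counts in irradiated larvae and 6910, 6743 and 6728 in control larvae (log2 fold change −0.80, standard error 0.12, adjusted p = 0.00338). For both genes the 3 pools of a group were close together. Their calls and that of Lbr-1 held without any 1 larval library, and the adjusted p ran from 0.0226 to 0.0867 for Ima3-1 (highest without control library 1) and 0.076 to 0.135 for Seh1 (highest without control library 2).

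Marker lists of larval cell types lay on either side of the shares over all genes (2.05% lower, 1.87% higher), with axoneme and neuron genes below them in both directions and muscle genes at 2.04% lower and 6.12% higher. Of 111 tested genes of the ciliary axoneme, the motor shaft of the cilia that drive the larva, 1 fell and 0 rose, with a median of −0.03 and a sum of 8276 to 9983 TPM in irradiated larvae and 8099 to 9247 TPM in control larvae. The 1 that fell, Dyh3-2, had 49% of its reads uniquely placed, and its call was lost in each omission of a larval library (adjusted p = 0.0603 to 0.127, highest without control library 1). Of 77 genes for intraflagellar transport and the ciliary base, 2 rose and 0 fell, and Nek1, for a kinase that also acts outside the cilium, rose by 1.41-fold. Of 328 tested neuron genes, 1 fell and 3 rose, with a median of 0.05. The neuron list summed to 4925 to 5205 TPM in irradiated larvae and 4556 to 4888 TPM in control larvae, just apart. The lower ribosomal protein share also raises sums of this kind in irradiated larvae, and the gap was not tested. Sc6a8-1 and Sc6a6-3, which rose by 2.15-fold and 1.88-fold, are named for carriers of creatine and taurine that many cell types use, and Sc6a5-1, for a glycine carrier of inhibitory neurons, fell by 1.98-fold. The other neuron gene that rose, Acha7-3, is named for an acetylcholine receptor subunit (log2 fold change 1.08, adjusted p = 0.0409, edgeR). Its normalized counts averaged 33.1 in irradiated larvae and 16.1 in control larvae, and its call was not followed over the omissions. Of 49 muscle genes tested, 3 rose and 1 fell, with a median of 0.10 and a negative log2 fold change in 21. The list summed to 4243 to 4616 TPM in irradiated larvae and 3180 to 3276 TPM in control larvae, and much of that gap came from 2 actin genes. Actm averaged 1072 TPM in irradiated larvae and 528 TPM in control larvae, and Actc-3 averaged 650.1 TPM in irradiated larvae and 310.2 TPM in control larvae, with 76.9% and 85.3% of their reads uniquely placed. Actc-3 had 6411, 9889 and 6828 normalized counts in irradiated larvae, against 3703, 3227 and 4690 in control larvae, and Actm rose by 1.93-fold. Tnnc1-2, for the calcium sensor troponin C, fell by 2.32-fold. Of 139 digestive tract genes, 4 fell (2.88%) and 0 rose, with a median of −0.25 and a sum of 2798 to 6714 TPM in irradiated larvae and 5205 to 7141 TPM in control larvae. They were Nas15-5 (1.68-fold) and Nas13-2, for astacin-type proteases, Ampn-16, for an aminopeptidase, and Malt1 (1.58-fold), which is named for a protease of immune signalling and not of digestion. Of 33 tested germ line and piRNA genes, 0 fell and 0 rose by edgeR's test (3 fell and 3 rose at an unadjusted p of 0.05 or less, 1 fell by DESeq2 and 0 changed by limma), with a median of −0.24 and a sum of 379.6 to 422 TPM in irradiated larvae and 348 to 519 TPM in control larvae. In the files, 5 of 120 axoneme genes, 7 of 416 neuron genes, 0 of 53 muscle genes, 8 of 171 digestive tract genes and 0 of 44 germ line genes had no read in any larval library. The part of these lists in the other changes was not tested. Tnnc1-2 kept its call without any 1 larval library. The adjusted p ran from 0.0458 to 0.0905 for Nek1 (highest without control library 1), 0.0103 to 0.0673 for Sc6a8-1 (highest without irradiated library 2), 0.0298 to 0.0706 for Sc6a6-3 (highest without irradiated library 3), 0.0688 to 0.108 for Sc6a5-1 (highest without control library 3), 0.0294 to 0.0975 for Actc-3 (highest without control library 1), 0.0287 to 0.0954 for Actm (highest without control library 1), 0.0276 to 0.0879 for Nas15-5 (highest without control library 1) and 0.0272 to 0.0601 for Malt1 (highest without irradiated library 1).

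**Figure D5:**
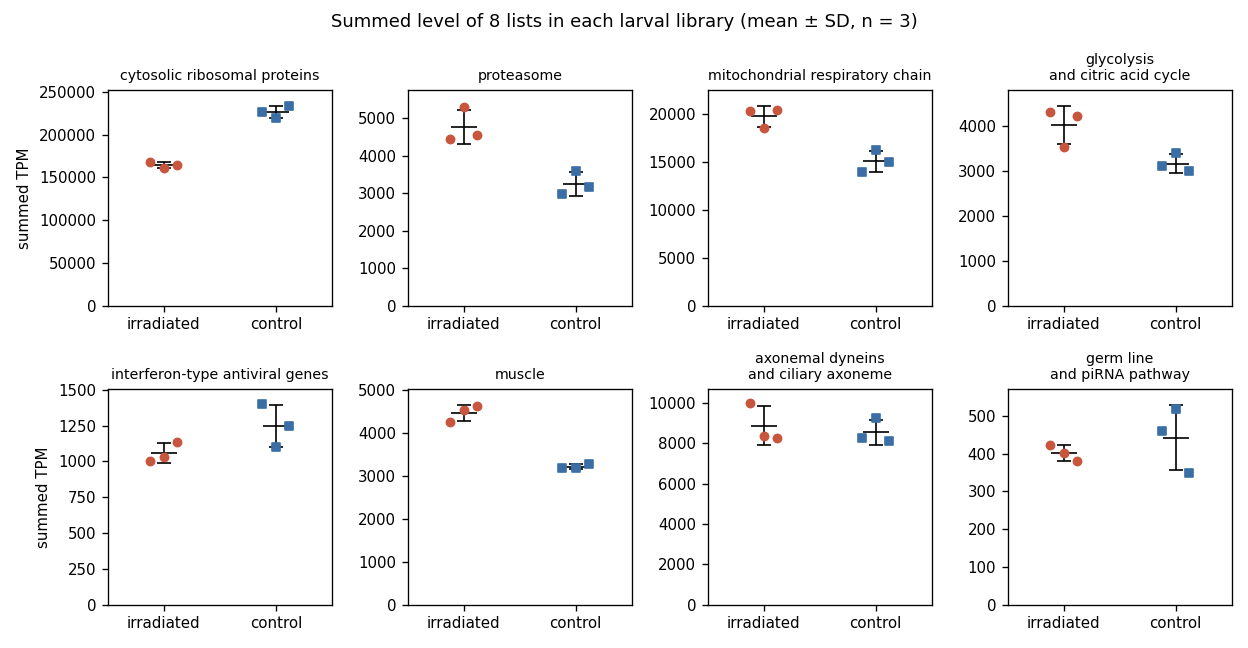
Summed TPM of the genes of 8 lists in the 3 irradiated libraries (left, red) and the 3 control libraries (right, blue), with black bars for the mean ± SD and axes from 0. The groups are apart for ribosomal proteins (160814 to 168045 TPM in irradiated larvae against 218881 to 233489 TPM in control larvae), the proteasome, the respiratory chain, glycolysis and muscle, and overlap for the antiviral, axoneme and germ line lists.

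The larval changes were set against those of juveniles 3 days after 200 Gy, in the same fit. Stage and dose differ together between these groups and cannot be told apart. Of the genes that rose in larvae, 186 (47.8%) also rose in juveniles, which is 8.28% of the 2246 genes (10.8% of those tested) that rose there. The difference between the responses was tested directly, and 3.47% of all genes passed. Of the 108 genes named by rule, 27 passed, but they were chosen by their larval change, which is part of this difference. Over all genes tested, 11.1% fell and 10.8% rose in juveniles. Of the 81 ribosomal protein genes, of which 52 fell in larvae, 0 fell and 1 rose in juveniles, with a median of −0.06, and 13 differed between the stages. For Rl21-1 the juvenile response exceeded the larval one by 0.70 on the log2 scale (adjusted p = 0.0216). Of the 88 ribosome biogenesis genes, 32 rose and 1 fell in juveniles, with a median of 0.51, and 11 differed from larvae, among them Nop14 (difference 0.98, adjusted p = 0.0265). Of the 111 axoneme genes, 77 rose in juveniles and 54 differed. Fcgbp-5 moved in opposite directions, with log2 fold changes of 2.31 in larvae and −2.21 in juveniles, a difference of −4.52 (adjusted p = 0.000117). Mrc2-4 rose in larvae and had a log2 fold change of 0.17 in juveniles (difference −2.90, adjusted p = 0.0113). The larval rise of Ppm1d was larger than its juvenile log2 fold change of 0.85, and that of Parp1-2 smaller than its juvenile 2.42 (differences −1.12 and 0.90, adjusted p = 0.0113 and 0.0181). In proteasome and respiratory chain genes, 36 of 41 and 67 of 98 rose in juveniles, and 3 and 1 members of these lists differed from larvae. The Rl21-1 and Nop14 differences had an adjusted p of up to 0.0561 and 0.0694 when 1 larval library was left out, while those of Fcgbp-5, Mrc2-4, Ppm1d and Parp1-2 stayed called.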

How the data were processed

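RNA from pools of 5 larvae was prepared with a poly(A) mRNA kit and sequenced as 75-bp pairs. The authors mapped reads to their genome assembly (version 2.0) with CLC and deposited, for each library, read counts per gene (total, uniquely placed, exon and intron reads) and TPM. The submitters' processing notes also name DESeq2, with no version. The deposited total gene read counts were tested with edgeR 4.0.16 (R 4.3.3): TMM scaling, edgeR's default filter on low counts (6683 of 27463 genes left out, 99.9% of larval counts kept), 1 mean per group over all 12 libraries, the quasi-likelihood test and Benjamini-Hochberg adjustment over all tested genes, with calls at 0.05 or less. Normalized counts are counts scaled to a common library size of 12955497. Folds are fitted values. The deposited TPM were summed over lists and not tested. The p-values set the difference between larval groups against a spread between pools. That spread was estimated over all groups, juveniles included, with information shared across genes.

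Lists were matched by gene name, with misleading names left out by hand, and so may hold genes of other function. The members and lists were chosen with earlier results of these data known. The genes named were the 10 largest falls and rises under the limits given with them, up to 2 called members per list and direction with the smallest p, and the 2 with the smallest p in any name family with at least 5 calls in 1 direction. A further 44 genes were named after their values were seen. These include Parp1-1, Parp2, Parp3-2, Smug1-3, Bcl2, Cdk1-2, Ccna-1, Mcm3z, Mcm5, Mcm4b, Rir2-2, Hsp70-3, Gst1-1, Sdha, Sdhb-1, C560, Fas-9, Fas-11, Fas-12, Tnf13-1, Casp8-21, Traf2-17, Nfkb1-1 and Fgf9-1. Alternatives used DESeq2 1.42.0, limma 3.58.1, other scalings, filters and columns, a replicate block and the omission of each larval library. Scripts were tested on simulated data. Genome sequence was not used here, and some results are not reported here.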

Additional observations from a re-analysis of the deposited data

Results flagged for a closer look

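The responses of 30 of the genes named differed between juveniles after 200 Gy and larvae after 120 Gy in the test of the difference itself (edgeR's quasi-likelihood test, adjusted over all genes). Stage and dose cannot be told apart here. All 30 were named for their larval change, and 3 of them (Gst1-1, Hsp70-3 and Smug1-3) after their values were seen. The values given are log2 fold changes of juveniles minus those of larvae, so that a negative value marks a larval response that lay higher.

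Among genes that rose in larvae, the difference was −4.52 for Fcgbp-5 (adjusted p = 0.000117), −2.90 for Mrc2-4 (adjusted p = 0.0113), −2.05 for Mrc1-7 (adjusted p = 0.0334), −1.95 for Pgbm-2 (adjusted p = 0.0278) and −1.72 for Thtr-2 (adjusted p = 0.037). It was −3.24 for Cp17a-9 (adjusted p = 0.0409), which had 1 read over the control larvae. The stress genes Gst1-1 and Hsp70-3 differed by −2.76 and −2.68 (adjusted p = 0.0295 and 0.0362), and both had their highest larval count in irradiated library 2. For the carriers S13a5-1 and S26a5-1 it was −1.66 and −1.38 (adjusted p = 0.0426 and 0.0205).

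Of the genes named for the damage response, B2cl1-1 differed by −1.999, Smug1-3 by −1.52, Ppm1d by −1.12 and Parp1-2 by 0.90 (adjusted p = 0.0383, 0.0361, 0.0113 and 0.0181). Among other genes that rose in larvae, Eif3k-1 differed by 0.69, Apod-6 by 1.01 and Sfrp5-1 by 1.10 (adjusted p = 0.0328, 0.0207 and 0.0113), each with the larger rise in juveniles.

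Among genes that fell in larvae, Rl4a-1 differed by 0.55, Rl21-1 by 0.70 and Nop14 by 0.98 (adjusted p = 0.0393, 0.0216 and 0.0265). Foxn4 differed by 1.22, Fgfr2-4 by 1.54 and Fgrl1-4 by 1.68 (adjusted p = 0.0129, 0.0113 and 0.0269). Cp4f2-7 differed by 1.64, Cp2u1-35, which rose in larvae, by 2.08, and Gsta4-1 by 2.21 (adjusted p = 0.0334, 0.0333 and 0.0117). Mot12-75 differed by 2.15 and Arrd3-2 by 2.17 (adjusted p = 0.0117 and 0.0482). Malt1 and H1d, which also fell in larvae, differed the other way, by −1.14 and −0.93 (adjusted p = 0.0117 and 0.0137).

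The differences of Fcgbp-5, Malt1, Ppm1d, H1d, Sfrp5-1, Foxn4, Fgfr2-4 and Mot12-75 passed the threshold in every other setting and omission of a larval library that was run. Those of S13a5-1 and Arrd3-2 passed in none of the 6 omissions, with adjusted p of up to 0.0962 and 0.101.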

How the results depend on the processing

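The 425 falls and 389 rises became 871 and 783 with DESeq2's Wald test, 172 and 115 with only the larval libraries, and 100 and 64 at an adjusted p of 0.01. Scaling by library totals alone gave 366 and 590 and moved the median of all genes to 0.065. Omitting 1 larval library gave 201 to 341 falls and 105 to 294 rises. Of the 108 genes named by rule, 27 differed from the juvenile response, and 14 to 26 in these omissions. With a replicate block there were 300 falls, 199 rises and 9 such differences. The deviations of same-numbered libraries correlated at 0.0101, −0.0299 and 0.0632, so that the numbers were not taken as pairs. Scaling by DESeq2 size factors (446 and 360), at least 1 count (411 and 334), at least 10 counts (547 and 440), limma (478 and 428), unique reads (448 and 398), exon reads (457 and 399), thinned libraries (444 and 401) and bias-adjusted deviances, chosen after the data were seen (469 and 442), stayed within 1.5 times.

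For the 152 genes named, 2197 of 2709 such comparisons kept the call, 512 lost it and 0 turned the direction. The calls were lost most often with only the larval libraries (78 genes), without control library 1 (73) and without irradiated library 3 (61). The replicate block lost 49, and 56 genes were called under every setting. At 7675726 to 17809380 reads a library, 6683 genes were left untested. Of 195 histone genes, 10 were tested and 144 had no larval read.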

Other observations

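Further genes, chosen after their values were seen and in no list above, are given as values. The kringle genes Plmn-1 and Plmn-2, named for the blood protease plasminogen and close in name to the Lpal2 genes, fell together. Plmn-2 had 363, 104 and 282 normalized counts in irradiated larvae, against 861, 1041 and 2058 in control larvae, and Plmn-1 fell by 4.69-fold. The adjusted p of edgeR's quasi-likelihood test was 0.0352 and 0.0332, and over the omissions of a larval library it ran from 0.0527 to 0.102 for Plmn-2 (highest without control library 3) and 0.0251 to 0.123 for Plmn-1 (highest without control library 3). Without control library 3, the log2 fold change of Plmn-1 was −1.64, against −2.23 with it.

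Single genes that fell include the following. Insr-1, for the insulin receptor, had 10.9, 6.78 and 17.1 normalized counts in irradiated larvae and 29.4, 41.2 and 44.8 in control larvae, and Irs1-1, for its substrate, had 893, 1005 and 1112 in irradiated larvae and 1746, 1358 and 1733 in control larvae. The ETS factor genes Spdef and Ehf, which act in secretory and other epithelia in mammals, fell by 3.11-fold and 1.97-fold. Spdef had 344, 159 and 314 normalized counts in irradiated larvae, against 759, 751 and 1040 in control larvae. Gcm, named for a factor of glia and blood cells in Drosophila, had 30.7, 27.1 and 28.2 normalized counts in irradiated larvae and 79.7, 92.8 and 87.6 in control larvae. Hdc, named for headcase, which keeps progenitor cells in Drosophila, had 639, 614 and 545 in irradiated larvae and 1280, 1425 and 1461 in control larvae, a tight fall (adjusted p = 0.000458, edgeR). Spdef, Ehf and Hdc kept their calls without any 1 larval library, but within the larval libraries alone Ehf did not (adjusted p = 0.0519). The adjusted p ran from 0.0458 to 0.104 for Insr-1 (highest without irradiated library 2), 0.0328 to 0.113 for Irs1-1 (highest without control library 1) and 0.067 to 0.0932 for Gcm (highest without irradiated library 3).

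Single genes that rose, some of them abundant, include the following. Tba1d-1 and Tba1a-5, for alpha tubulins, had 6827, 6252 and 6432 and 12309, 12401 and 13671 normalized counts in irradiated larvae, against 4364, 3333 and 3424 and 8081, 8299 and 9312 in control larvae. Act1-5, for an actin, had 11426, 7427 and 15838 in irradiated larvae and 5852, 7062 and 5322 in control larvae, with 64% of its reads uniquely placed. Unchar_1236, a gene of 4 exons on chr9A_Sc2, had 14371, 81892 and 27526 normalized counts in irradiated larvae, against 7880, 5746 and 8336 in control larvae, and irradiated library 2 stood far above the other two. Tba1d-1 kept its call in each omission, and the adjusted p ran from 0.0412 to 0.115 for Tba1a-5 (highest without control library 1), 0.007 to 0.135 for Act1-5 (highest without control library 1) and 0.0039 to 0.0653 for Unchar_1236 (highest without control library 1). Without irradiated library 2, the log2 fold change of Unchar_1236 was 1.52, against 2.49 with it.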
